A study of Mus musculus with 36 samples.

Results

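RAW 264.7 cells, a mouse macrophage-like line, that received 0.1 µM (10-7 M) melatonin 30 min before lipopolysaccharide (LPS) were compared with cells that received LPS alone. The comparison was fixed by the labels of the libraries, not by any measured value, and uses 6 of the 36 libraries of the study, 3 in each group. All genes of the count table were considered, 53465 in all, of which 16988 had enough counts to be tested. The whole study holds 12 groups of 3 libraries, namely solvent, LPS, melatonin alone at 5 doses, and LPS with melatonin at the same 5 doses. The genotype of all cells was given as WT, LPS was used at 10 µg/mL, and cells were collected after 12 h. Other groups were used here as well. LPS with 1, 10 and 100 µM melatonin shows whether the lowest dose stood apart from higher ones, and 0.1 µM melatonin alone with its solvent control shows what the same dose did without LPS. A pretreatment of 30 min is listed only for LPS with melatonin, so the time in melatonin may differ from that of melatonin alone. RAW 264.7 is a single transformed line, so the groups model cultured cells of that line only.

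LPS, an outer membrane component of Gram-negative bacteria, is sensed by Toll-like receptor 4, which activates NF-kB, MAP kinases and interferon regulatory factors, and macrophages answer with cytokines, prostaglandins, nitric oxide and interferon-stimulated genes. Melatonin is an indoleamine hormone of the pineal gland that acts through the G protein-coupled receptors MT1 and MT2 and also as an antioxidant, and it is studied as an agent that dampens macrophage inflammation. Macrophages also digest what they take up in lysosomes, whose hydrolases and proton pumps are regulated together by factors of the MiT/TFE family that bind E-box letters.

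The promoters of a pair of genes named below carry letters that MiT/TFE factors or NF-kB are known to bind, and they are shown because one gene was higher and the other lower with melatonin. They span 250 bases before to 50 bases after the annotated start, from RefSeq on GRCm38.p6, with the matched letters in capitals. Ctsd, which encodes the lysosomal protease cathepsin D, lies on the minus strand (chr7:142387778-142388077), and its promoter holds CACGTG, the E-box, at 245 and at 98 bases before the start. Icam1, which encodes an adhesion molecule bound by leukocyte integrins, lies on the plus strand (chr9:21015690-21015989), and its promoter holds GGAANTTCC, a form of NF-kB site, at 153 bases before the start.
Ctsd: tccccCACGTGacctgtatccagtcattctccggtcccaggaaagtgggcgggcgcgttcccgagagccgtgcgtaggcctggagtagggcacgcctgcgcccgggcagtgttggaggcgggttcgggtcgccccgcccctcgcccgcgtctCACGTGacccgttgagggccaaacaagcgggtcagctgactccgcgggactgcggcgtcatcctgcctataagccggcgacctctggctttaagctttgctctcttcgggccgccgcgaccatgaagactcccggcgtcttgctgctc
Icam1: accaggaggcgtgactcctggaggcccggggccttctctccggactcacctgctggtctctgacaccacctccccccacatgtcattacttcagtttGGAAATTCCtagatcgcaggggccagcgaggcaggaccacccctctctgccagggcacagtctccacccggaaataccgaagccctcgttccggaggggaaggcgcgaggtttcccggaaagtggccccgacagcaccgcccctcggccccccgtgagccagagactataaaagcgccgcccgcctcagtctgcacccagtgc
Both strands were searched. RefSeq promoters were found for 65 of the 78 protein-coding genes that were higher and 49 of the 57 that were lower. Of 86 promoters of higher genes 11.6% held CACGTG, as did 10.1% of 69 promoters of lower genes and 7.15% of all 32851 promoters. The last set covers 27025 genes, whether or not they were tested here, so it is not matched to the called genes. GGAANTTCC was found in 0% of higher, 4.35% of lower (3 promoters, that of Icam1 included) and 0.928% of all promoters. A looser form of NF-kB site stood in 19.8% of higher, 20.3% of lower and 20.7% of all. The AP-1 letters TGANTCA were in 4.65% of higher, 1.45% of lower and 7.81% of all promoters, and the C/EBP letters TTGCNNAA in 4.65%, 10.1% and 10.8%. A match describes the letters of a promoter and is not evidence of binding.

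Between 6630861 and 6997945 reads were counted per library with LPS and melatonin, and between 7021915 and 7237716 per library with LPS alone, out of a range of 4203313 to 7590271 over all libraries. Levels are given as CPM, read counts scaled to a common library size after TMM correction. At these depths 3 counts equal 0.437 to 0.488 CPM, which a count of 0 still allows, counting error only. Changes are log2 fold changes ± SE of LPS with melatonin over LPS from edgeR's quasi-likelihood test, with two-sided p-values adjusted by Benjamini-Hochberg over all tested genes, and "rose" and "fell" are kept for an adjusted p under 0.05. Whether the replicates of a group were grown as separate cultures is not stated in the labels, so the p-values reflect only how far these libraries scatter, and that scatter may be technical. In bulk RNA, fewer cells of a kind and less RNA per cell cannot be told apart. The cells carried the label's type: all 11 macrophage markers were tested, none was called, and their summed level was 16844 to 17764 CPM with LPS and melatonin and 14592 to 14727 CPM with LPS alone. Of the markers of other types, 3 of 5 of B cells, 4 of 6 of T cells, 5 of 6 of neutrophils, 3 of 5 of epithelial cells and 2 of 5 of dendritic cells had 0 counts in all 6 libraries. The summed level of no such list, fibroblast and endothelial markers included, passed 11.9 CPM in a library with LPS and melatonin or 13.8 CPM in a library with LPS alone. Among all 36 libraries, replicate 3 of 1 mM melatonin alone and replicate 1 of 1 µM melatonin alone were the least like the other libraries of their groups, with correlations of 0.144 and 0.144 across genes of log2 CPM centred over libraries, while the 6 compared libraries had 0.321 to 0.346. Replicate 1 of 1 µM melatonin alone was nearer to the group of 1 mM melatonin alone (0.302) and replicate 3 of 1 mM to that of 100 µM (0.258), so both were nearer to another group than to their labelled one on this measure. Neither is among the 6 libraries, but both entered the estimate of the spread, and the library labelled replicate 1 of 1 µM melatonin alone also helped to choose the LPS-responsive genes below. The 3 libraries with LPS and 0.1 µM melatonin were slightly nearer to the group of LPS with 1 µM (0.340 to 0.357) than to each other. All libraries of LPS with 1, 10 and 100 µM melatonin and of 1 and 10 µM melatonin alone were also nearer to another group. Being nearer to another group was thus common on this measure. The mean of another group is over 3 libraries and that of a library's own group over the other 2.

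With 0.1 µM melatonin a small share of genes differed in LPS-treated cells. The lysosomal genes Ctsd, Ctsa and Atp6v0d1, the receptor gene Trem2 and the glycolytic genes Ldha and Tpi1 rose, whereas the lysosomal genes Laptm5 and Arsb, the cytokine gene Csf3, the adhesion gene Icam1, the proliferation genes Mki67, Top2a and Cenpf and cytoskeletal genes such as Flna and Tln1 fell. Most inflammatory genes, Tnf among them, did not pass the test. In all, 231 genes passed, 111 higher and 120 lower, which is 1.36% of the tested genes (0.653% higher and 0.706% lower), and 2299 had an unadjusted p under 0.05. Of the 231, 45 rose and 46 fell by at least 2-fold. The median log2 fold change of all tested genes was 0. The 3 libraries of one group lay all above or all below the 3 of the other in 3096 genes (18.2%), with 1540 above (9.07%) and 1556 below (9.16%).

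**Figure D1:**
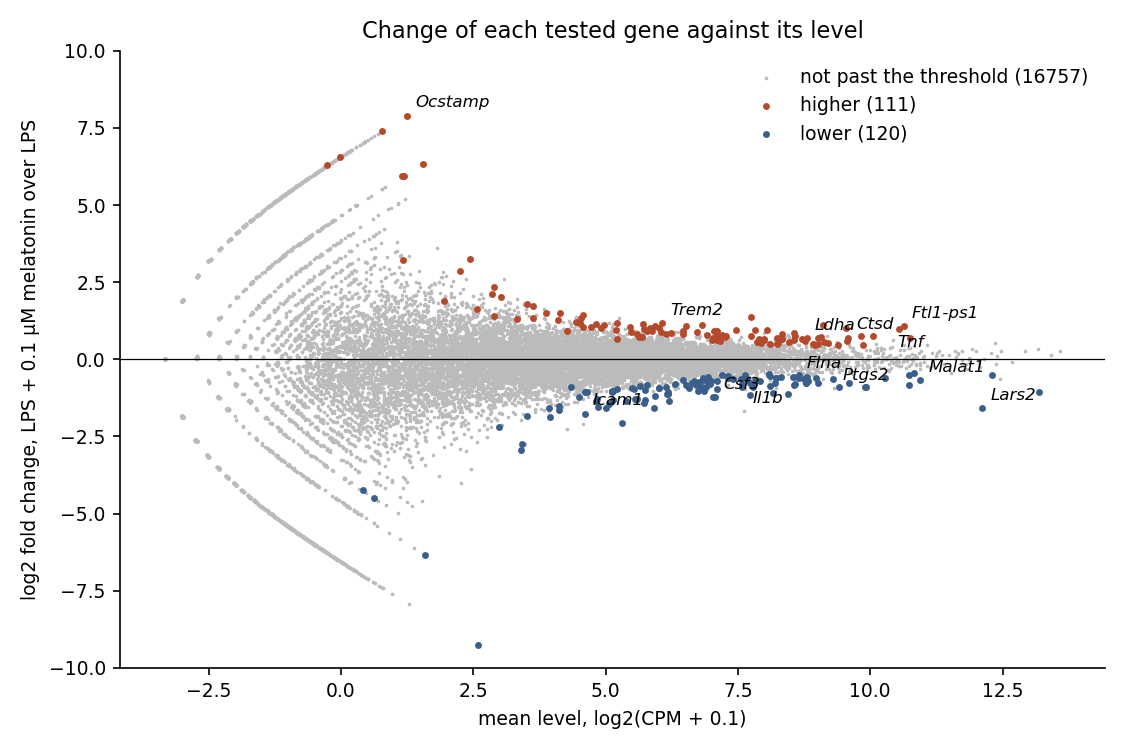
Each point is one of the 16988 tested genes, with its mean level over both groups on the horizontal axis, as log2(CPM + 0.1), and its log2 fold change of LPS with 0.1 µM melatonin over LPS on the vertical axis. The 111 genes that were higher are red, the 120 that were lower are blue and the others grey, and called genes are found from low to high levels.

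By kind of gene, 78 of 11765 protein-coding genes rose and 57 fell (1.15% in all), against 29 and 56 of 2805 pseudogenes (3.03%) and 4 and 7 of 2418 others (0.455%). Pseudogenes had a median log2 fold change of -0.15 and protein-coding genes of 0.00. Reads of pseudogenes cannot be told from those of near-identical parent genes, so these calls are uncertain. When protein-coding genes alone were tested, 115 passed. The count also depended on the libraries in the fit. It was 458 without either 1 mM group and 361 without the pair of libraries that stood apart, and in both fits all 231 genes remained. It was 508 when only the 6 libraries were fitted, with 197 of the 231 among them, and between 46 (without replicate 2 of LPS with melatonin) and 221 when 1 of the 6 was left out. Of the 46 genes that the naming rule picked and that passed, 11 passed under every alternative run, among them Inpp5k, Lars2, Znfx1, Arsb, Piezo1, Prrc2a, Malat1, Ctsd, Trem2 and Dst.

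Cytokines and chemokines were mostly at lower levels with melatonin, but 1 of 28 tested genes passed, Csf3, and none rose. Csf3 (chromosome 11, 98701263 to 98703629, mm10), which encodes the granulocyte growth factor G-CSF, had 73.5, 81.4 and 85.6 CPM with LPS and melatonin, against 181, 176 and 208 CPM with LPS alone. All libraries with melatonin lay below all with LPS alone, and Csf3 fell, with a log2 fold change of -1.23 ± 0.31 (adjusted p = 0.0357). This call was lost when any 1 of the 6 libraries was left out, with an adjusted p of up to 0.146, and the log2 fold change then stayed between -1.29 and -1.16. The median of the list was -0.29, against 0 over all genes, and 7 of the 28 values were positive. For 0.1 µM melatonin against solvent, without LPS, the list median was -0.51. All melatonin libraries lay below all LPS libraries in 9 of the 28 and above in 2, against 9.16% below and 9.07% above over all genes.

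Il1b (chromosome 2, 129364570 to 129371139), which encodes interleukin 1 beta, an inflammasome-processed cytokine that drives fever, had 92.7, 92.8 and 92.6 CPM with LPS and melatonin, against 324, 267 and 307 CPM with LPS alone. The groups were far apart and did not overlap. Even so the log2 fold change of -1.69 ± 0.47 (adjusted p = 0.0535) missed the threshold in the fit of all 36 libraries. Without LPS, Il1b had 0, 0 and 16 counts at 0.1 µM melatonin and 8, 5 and 13 counts in solvent. These libraries enter the same estimate of the spread, and their part in the missed threshold was not tested. The adjusted p was 1.74e-07 when only the 6 libraries were fitted, 0.00659 without both 1 mM groups and 0.0165 without the pair of libraries that stood apart, but 0.548 in DESeq2 on all libraries. With all libraries in edgeR it was 4.44e-09 with no filter on low counts and 0.0407 with protein-coding genes only. Whether Il1b passed thus turned on the libraries, the tool and the filter, while its log2 fold change kept between -1.78 and -1.64.

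Tnf, the tumour necrosis factor gene, went the other way in level, with 1328, 1381 and 1357 CPM with LPS and melatonin, against 1252, 1208 and 1282 CPM with LPS alone. Its melatonin libraries lay just above its LPS libraries, and the log2 fold change of 0.12 ± 0.14 (adjusted p = 0.775) did not pass. Il6 had 4.93, 7.33 and 3.82 CPM with LPS and melatonin, against 9.56, 8.73 and 16.3 CPM with LPS alone, and although the groups did not overlap, its log2 fold change of -1.10 ± 1.30 (adjusted p = 0.784) did not pass. Ccl3, a chemokine for monocytes, was among the most abundant transcripts, with 5169.9, 5077 and 4903 CPM with LPS and melatonin, against 5547, 5989 and 5204 CPM with LPS alone. Its log2 fold change of -0.14 ± 0.11 (adjusted p = 0.622) did not pass. The neutrophil chemokine Cxcl2 had 1435, 1459.9 and 1349.5 CPM with LPS and melatonin, against 1530.3, 1554 and 1458 CPM with LPS alone, and a log2 fold change of -0.10 ± 0.23 (adjusted p = 0.931). Il1a, the sister cytokine of Il1b, had a log2 fold change of -2.09 (adjusted p = 0.237), the receptor antagonist Il1rn of -0.61 (adjusted p = 0.437) and the growth factor Tgfb1 of -1.15 (adjusted p = 0.0748), and none of these passed. The anti-inflammatory cytokine gene Il10 was not tested, with 4 counts in the libraries with LPS and melatonin, 0 with LPS alone, and 10 over all 36 libraries.

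**Figure D2:**
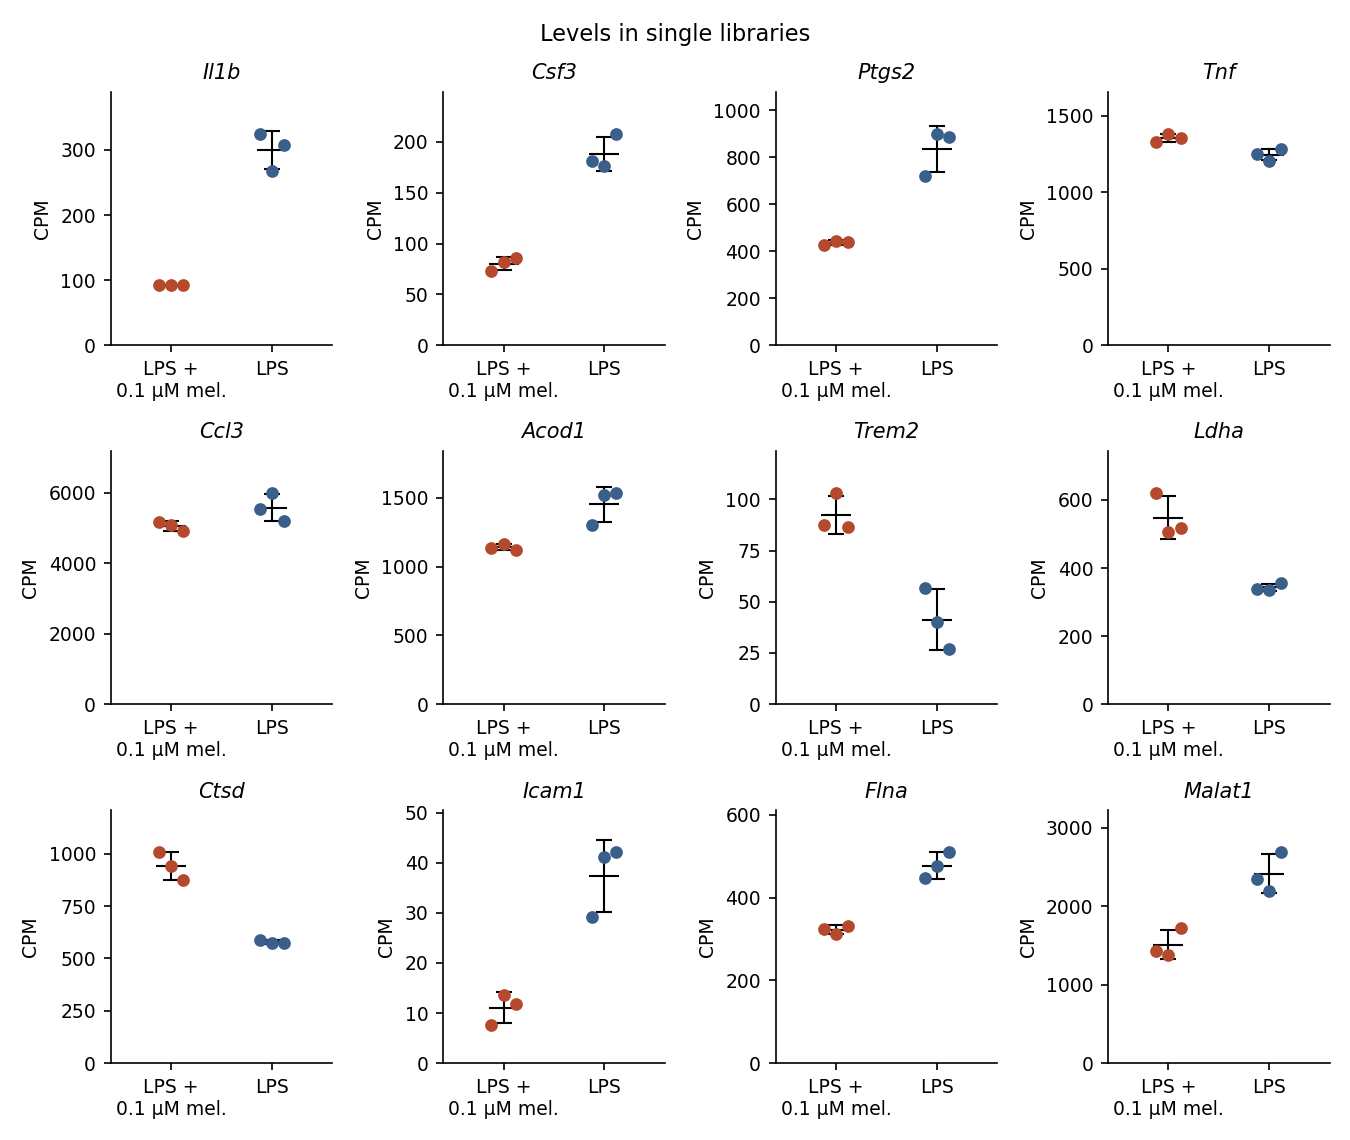
Levels in CPM of 12 genes in single libraries (points), with the mean (long line) and SD (error bars) of the 3 libraries of each group, LPS with 0.1 µM melatonin at left in red and LPS at right in blue. Il1b, Csf3, Ptgs2, Icam1, Flna and Malat1 lie lower with melatonin, Trem2, Ldha and Ctsd lie higher, and Tnf, Ccl3 and Acod1, which did not pass, lie closer together.

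None of 22 inflammatory enzymes and effectors passed, while 9 of them lay lower in every melatonin library and 1 higher, against 9.16% lower and 9.07% higher over all genes. The median of the list was -0.19. Ptgs2, the inducible cyclooxygenase that starts prostaglandin synthesis, had 425, 443 and 441 CPM with LPS and melatonin, against 723, 899 and 887 CPM with LPS alone. The groups did not overlap, and the log2 fold change was -0.94 ± 0.34 (adjusted p = 0.182). As for Il1b, the fit mattered: the adjusted p was 1.18e-05 when only the 6 libraries were fitted, 0.00492 without both 1 mM groups and 0.0353 without the pair that stood apart. Nos2, the inducible nitric oxide synthase, had 11.4, 17.3 and 21.4 CPM with LPS and melatonin, against 31.4, 30.9 and 27.6 CPM with LPS alone, a log2 fold change of -0.84 ± 0.60 (adjusted p = 0.578). Acod1, which makes the immunomodulatory metabolite itaconate, had 1138, 1167 and 1123 CPM with LPS and melatonin, against 1302, 1519.7 and 1534 CPM with LPS alone, and its log2 fold change of -0.35 ± 0.28 (adjusted p = 0.643) passed under 1 of 16 alternatives, the fit of only the 6 libraries (0.0141). The acute-phase gene Saa3 had a log2 fold change of -0.50 (adjusted p = 0.263) and the iron-binding lipocalin Lcn2 of -1.02 (adjusted p = 0.373).

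No signalling gene upstream of these passed, among 27 NF-kB genes (median -0.10), 18 MAPK phosphatases and mRNA-decay factors (median -0.13) and 21 Toll-like receptors and adaptors (median -0.18). In every melatonin library 7 NF-kB genes lay lower and 1 higher, and 5 Toll-like receptor genes lay lower and 1 higher, where over all genes 9.16% lay lower and 9.07% higher. Without overlap of the groups, the NF-kB subunit gene Nfkb2 had a log2 fold change of -1.02 (adjusted p = 0.380), the atypical inhibitor Nfkbiz of -0.57 (adjusted p = 0.195), the deubiquitinase gene Tnfaip3 of -0.52 (adjusted p = 0.375) and Irak3, a brake on receptor signalling, of -0.53 (adjusted p = 0.199). Nfkbia, the inhibitor that NF-kB induces against itself, had 580.0, 787 and 673 CPM with LPS and melatonin, against 626, 551 and 623 CPM with LPS alone. Its groups overlapped, with a log2 fold change of 0.18 ± 0.17 (adjusted p = 0.704). Icam1 (chromosome 9, 21015985 to 21028817), whose promoter is shown above, had 7.63, 13.7 and 11.8 CPM with LPS and melatonin, against 29.1, 41.0 and 42.1 CPM with LPS alone. The groups were well apart, and Icam1 fell by 1.76 ± 0.44 on the log2 scale (adjusted p = 0.0258), a call that was lost in 5 of the 6 fits without 1 library. In solvent its level was 18.1 ± 2.27 CPM (SD, n = 3).

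Interferon-stimulated genes, which carry the antiviral program that LPS induces through interferon beta, had the lowest median of the 30 lists, at -0.34, and 10 of 43 were positive. None passed. In 12 of the 43 all melatonin libraries lay below all LPS libraries and in 2 above, where over all genes the shares were 9.16% and 9.07%. The guanylate-binding protein gene Gbp7 had a log2 fold change of -0.91 (adjusted p = 0.589), Isg15, a ubiquitin-like modifier, of -0.77 (adjusted p = 0.681) and Ifit2 of -0.66 (adjusted p = 0.452). Irf7, the factor that amplifies the interferon response, had a log2 fold change of -0.06 (adjusted p = 1), and Stat2 of -0.01 (adjusted p = 1). Over the alternatives the list median kept between -0.35 and -0.24. The next lowest list, heat shock chaperones at -0.33, ran from -0.45 to -0.20, so the rank was not fixed. For 0.1 µM melatonin against solvent, without LPS, the median of the interferon-stimulated genes was -0.36. One gene outside the lists, Znfx1, which encodes a helicase that senses viral RNA, had 15.6, 16.8 and 15.7 CPM with LPS and melatonin, against 43.8, 37.0 and 62.9 CPM with LPS alone. Its groups did not overlap, and it fell with a log2 fold change of -1.58 ± 0.29 (adjusted p = 0.00227).

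**Figure D3:**
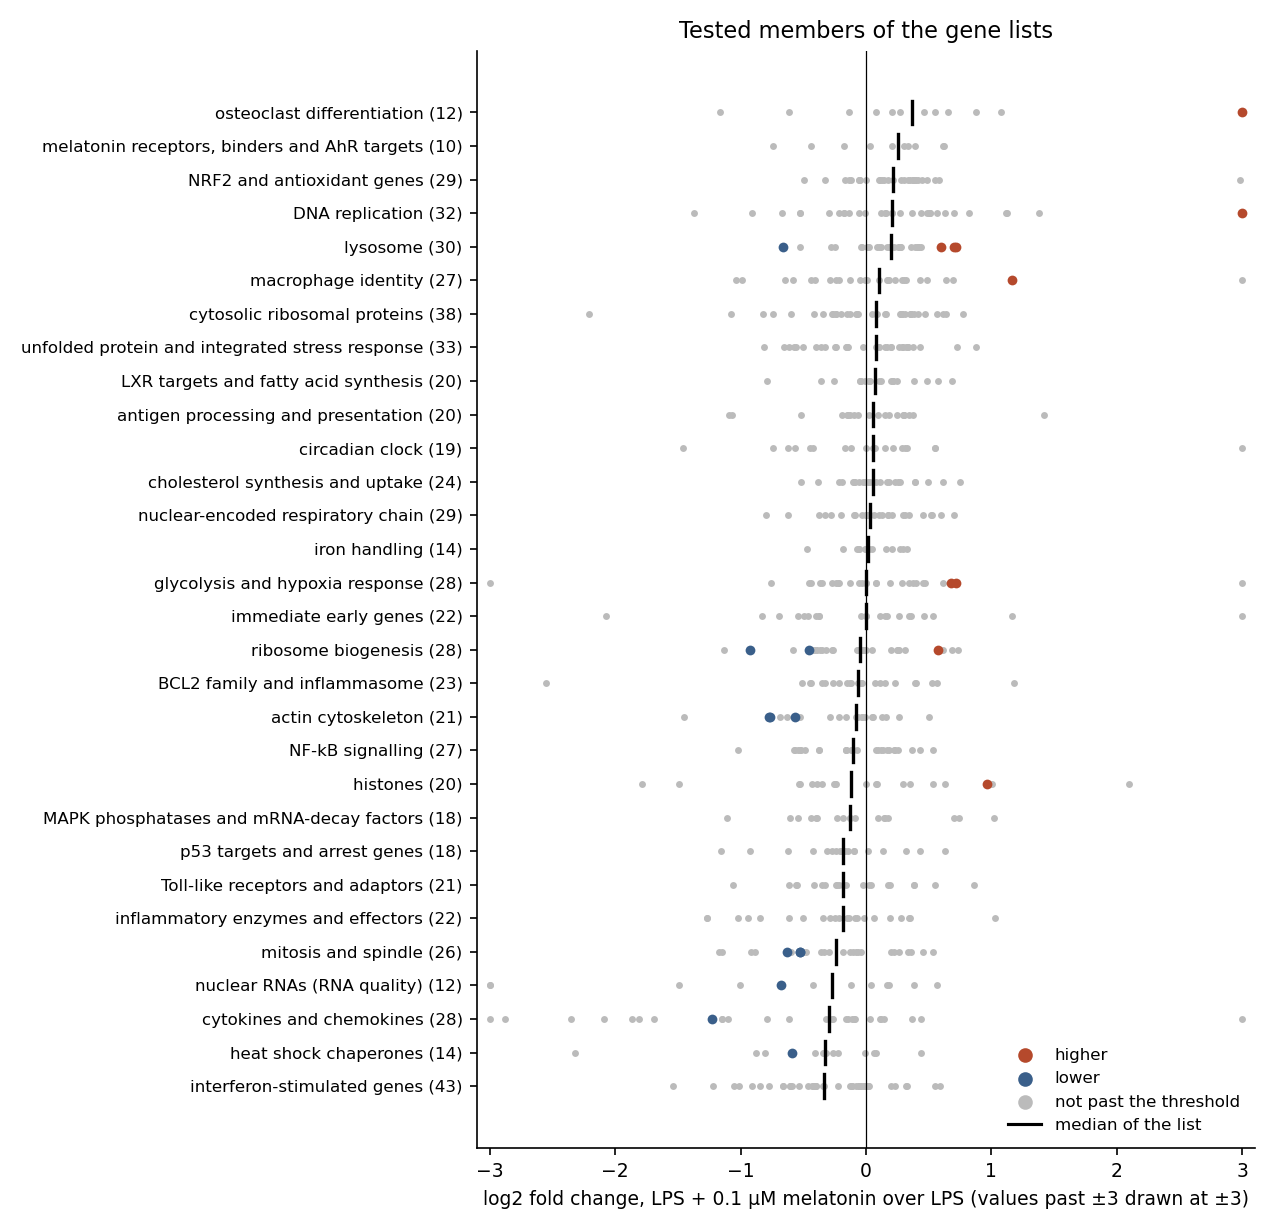
Log2 fold changes of LPS with 0.1 µM melatonin over LPS for the tested members of 30 gene lists (number tested in brackets), ordered by the median of the list, which the black bar marks, with higher genes in red, lower genes in blue and the others in grey. Medians run from -0.34 for interferon-stimulated genes to 0.37 for osteoclast differentiation, and most members of every list are grey. Values past ±3 are drawn at ±3.

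Of 29 tested antioxidant genes under the factor NRF2, 20 had positive values and the median was 0.22, but none passed, and 11 lay higher and 2 lower in every melatonin library, against 9.07% higher and 9.16% lower over all genes. Gpx4, which reduces lipid peroxides, had 118, 118 and 121 CPM with LPS and melatonin, against 83.6, 73.9 and 86.0 CPM with LPS alone. These groups did not overlap, with a log2 fold change of 0.55 ± 0.17 (adjusted p = 0.101). The peroxiredoxin gene Prdx6 had a log2 fold change of 0.38 (adjusted p = 0.118), and Gclc, the catalytic subunit of glutathione synthesis, of 0.49 (adjusted p = 0.216). Hmox1, heme oxygenase, had 173, 169 and 183 CPM with LPS and melatonin, against 129, 158 and 146 CPM with LPS alone, a log2 fold change of 0.28 ± 0.24 (adjusted p = 0.674). Nqo1 had 10 counts over the 3 melatonin libraries and 1 over the 3 LPS libraries, a ratio of 10.5 with a counting interval of 1.5 to 456 (95%, exact), and did not pass (adjusted p = 0.640). The melatonin receptor gene Mtnr1a had 0 counts in the 6 libraries, and Mtnr1b had 1 count with LPS and melatonin and 0 with LPS alone, so neither was tested. Of 10 tested genes for other melatonin binders and AhR targets, none passed.

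A pair of transcripts named as pseudogene copies of the ferritin light chain rose. Ftl1-ps1, which the authors' annotation lists as protein-coding, had 2243, 2201 and 2014 CPM with LPS and melatonin, against 969, 1046 and 1033 CPM with LPS alone. It rose with a log2 fold change of 1.08 ± 0.14 (adjusted p = 2.83e-05), and Ftl2-ps rose by 1.00 ± 0.16 on the log2 scale (adjusted p = 0.000453). The genes they resemble did not pass. Ftl1, the ferritin light chain, had 120.2, 155 and 103 CPM with LPS and melatonin, against 116, 96.5 and 95.1 CPM with LPS alone, with groups that overlapped and a log2 fold change of 0.30 ± 0.19 (adjusted p = 0.494), and Fth1, the heavy chain, had a log2 fold change of 0.21 (adjusted p = 0.727). Reads of these copies cannot be told apart, so which of them changed is uncertain. Of the 14 iron-handling genes tested, none passed (median 0.01). None of 33 genes of the unfolded protein and integrated stress response passed either (median 0.08). Of 14 heat shock chaperones 1 fell, Hspa8, a constitutive chaperone, with a log2 fold change of -0.59 (adjusted p = 0.0221). The call of Hspa8 held under 12 of 16 alternatives.

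Of 30 lysosomal genes 3 rose and 1 fell, where 0.653% of all genes rose and 0.706% fell, and 26 were not called. Positive values were found in 24 of the 30 and in 47.5% of all genes, and the median of the list was 0.20. Ctsd (chromosome 7, 142375911 to 142388038), whose promoter with its pair of E-boxes is shown above, had 1008, 941 and 875 CPM with LPS and melatonin, against 589, 576 and 574 CPM with LPS alone. Every melatonin library was well above every LPS library, and Ctsd rose, with a log2 fold change of 0.70 ± 0.15 (adjusted p = 0.00586). Atp6v0d1, a subunit of the proton pump that acidifies lysosomes, had 181, 222 and 169 CPM with LPS and melatonin, against 107, 129 and 111 CPM with LPS alone. It rose by 0.72 ± 0.16 on the log2 scale (adjusted p = 0.0102), without overlap of the groups. This call held under 13 of 16 alternatives (adjusted p up to 0.143). Ctsa, the protective protein cathepsin A, had 187, 159 and 171 CPM with LPS and melatonin, against 116, 130.3 and 95.5 CPM with LPS alone, and rose by 0.60 ± 0.14 on the log2 scale (adjusted p = 0.0203). The member that fell was Laptm5, a lysosomal membrane protein of hematopoietic cells that limits receptor signalling, with 98.1, 73.6 and 92.9 CPM with LPS and melatonin, against 140.3, 145 and 134 CPM with LPS alone. Its log2 fold change was -0.67 ± 0.14 (adjusted p = 0.00875), and its groups were apart. The call of Laptm5 held under 15 of 16 alternatives (adjusted p up to 0.136). Of the other members, Tpp1, a peptidase, had a log2 fold change of 0.44 (adjusted p = 0.0847), Lipa, the acid lipase, of 0.41 (adjusted p = 0.208), Ctsb of 0.25 (adjusted p = 0.312) and the membrane protein Lamp1 of -0.25 (adjusted p = 0.466), none of which passed. Arsb, a lysosomal sulfatase that is not on the list, fell, with 6.36, 8.30 and 11.9 CPM with LPS and melatonin, against 29.0, 27.5 and 20.2 CPM with LPS alone. Its groups did not overlap, and the log2 fold change was -1.52 ± 0.29 (adjusted p = 0.00254).

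Trem2 (chromosome 17, 48346401 to 48354147), a lipid-sensing receptor of macrophages and microglia, was the 1 of 27 macrophage identity genes that passed. It had 87.6, 103 and 86.6 CPM with LPS and melatonin, against 56.9, 40.0 and 27.0 CPM with LPS alone. All melatonin libraries lay above all LPS libraries, and Trem2 rose, with a log2 fold change of 1.16 ± 0.20 (adjusted p = 0.000879), past the threshold under all 16 alternatives. Its level in solvent was 217 ± 5.85 CPM, so that the level with LPS and melatonin, 92.4 ± 9.22 CPM, stood between those of LPS alone, 41.3 ± 15 CPM, and of solvent (SD, n = 3 each). Cst7, which encodes cystatin F, an inhibitor of lysosomal cysteine proteases in immune cells, had 8.27, 4.72 and 11.5 CPM with LPS and melatonin, against 0.758, 1.16 and 1.39 CPM with LPS alone. It rose by 2.86 ± 0.65 on the log2 scale (adjusted p = 0.0145), with no overlap. The call of Cst7 held under 11 of 16 alternatives (adjusted p up to 0.0799). Among 12 osteoclast genes, Ocstamp, needed for the fusion of osteoclast precursors, had 4.45, 6.35 and 2.90 CPM with LPS and melatonin and 0 counts in all 3 libraries with LPS alone. It was at least 30.1-fold higher, a bound set by 3 counts over the 3 LPS libraries (adjusted p = 0.0147). This call was lost without any 1 of the LPS libraries and without replicate 2 of LPS with melatonin (adjusted p up to 0.0824). Ocstamp was at 2.81 ± 0.540 CPM in solvent (SD, n = 3). In LPS with 1, 10 and 100 µM melatonin it was at 2.24 ± 2.13, 2.80 ± 2.12 and 7.01 ± 5.53 CPM. LPS alone thus had the lowest mean of the 12 groups.

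Mitosis genes fell in 3 of 26 cases and rose in none, where 0.706% of all genes fell, and the median of the list was -0.24, against 0 over all genes. Mki67, the proliferation marker, had 199.7, 244 and 237 CPM with LPS and melatonin, against 308, 328 and 347 CPM with LPS alone, and its groups did not overlap. It fell by 0.53 ± 0.13 on the log2 scale (adjusted p = 0.0215). Top2a, the topoisomerase that untangles chromosomes, had a log2 fold change of -0.63 (adjusted p = 0.0224) and the kinetochore gene Cenpf of -0.52 (adjusted p = 0.0224). The calls of Mki67 and Top2a were each lost in 4 of the 6 fits without 1 library and that of Cenpf in 5, with adjusted p-values of up to 0.167, 0.160 and 0.172. The 32 DNA replication genes had a median of 0.21 and 1 call, Ccne2, a cyclin of the G1 to S transition, with 0, 8.79 and 0.917 CPM in the melatonin libraries and 0 counts in all LPS libraries. The difference was at least 21-fold against 3 counts over the LPS libraries (adjusted p = 0.0187). Replicate 2 decided it, since the adjusted p was 0.331 without that library, and the call was also lost without any 1 of the LPS libraries. Wee1, the kinase that holds back entry into mitosis, had 6.36, 7.98 and 3.51 CPM with LPS and melatonin, against 1.21, 2.04 and 1.54 CPM with LPS alone. It rose by 1.88 ± 0.42 on the log2 scale (adjusted p = 0.0135), with no overlap of the groups. The call of Wee1 held under 11 of 16 alternatives (adjusted p up to 0.335). Of 20 histone genes 1 passed, the linker histone Hist1h1c, with a log2 fold change of 0.97 (adjusted p = 0.0189), a call that held under 13 of 16 alternatives. None of 18 p53 targets and arrest genes and none of 23 BCL2 family and inflammasome genes passed.

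Cytoskeletal genes fell in 3 of 21 cases and rose in none, where 0.706% of all genes fell, and the list median was -0.08. Flna, which crosslinks actin, had 323, 313 and 332 CPM with LPS and melatonin, against 446, 476 and 509 CPM with LPS alone, and fell by 0.56 ± 0.12 on the log2 scale (adjusted p = 0.00956). Tln1, talin, which links integrins to actin, had 566, 514 and 641 CPM with LPS and melatonin, against 1007, 943 and 992 CPM with LPS alone. Its log2 fold change was -0.77 ± 0.18 (adjusted p = 0.0174). Dst, the giant linker protein dystonin, had 308, 299.8 and 369 CPM with LPS and melatonin, against 549, 553 and 554 CPM with LPS alone, and a log2 fold change of -0.76 ± 0.14 (adjusted p = 0.00254). In all 3 genes the melatonin libraries lay below the LPS libraries. The call of Tln1 was lost in 4 of the 6 fits without 1 library (adjusted p up to 0.131) and that of Flna in 2 (up to 0.0780). All 3 are long transcripts, and genes of at least 6000 exon bases as a whole held 31.5% of protein-coding counts with LPS and melatonin and 33.8% with LPS alone, whose part in these results was not tested. Outside the list, Piezo1, a mechanosensitive channel, had 34.8, 41.2 and 48.0 CPM with LPS and melatonin, against 103, 91.1 and 120.1 CPM with LPS alone, and fell, with a log2 fold change of -1.34 ± 0.26 (adjusted p = 0.00350). Spn, the sialomucin of leukocyte surfaces, had 20.5, 14.2 and 18.8 CPM with LPS and melatonin, against 44.6, 45.4 and 57.2 CPM with LPS alone, and fell, with a log2 fold change of -1.46 ± 0.36 (adjusted p = 0.0228). The call of Spn held under 11 of 16 alternatives. Fblim1, whose product binds filamin, was higher, with a log2 fold change of 1.40 (adjusted p = 0.0464), a call lost under 9 of 16 alternatives.

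Glycolysis and hypoxia genes rose in 2 of 28 cases, where 0.653% of all genes rose, and 14 of the 28 had positive values, with a median of 0.00. Ldha, lactate dehydrogenase, had 619.9, 505 and 519 CPM with LPS and melatonin, against 339, 335 and 355 CPM with LPS alone, and rose by 0.68 ± 0.16 on the log2 scale (adjusted p = 0.0221). Tpi1, triosephosphate isomerase, rose by 0.72 ± 0.19 on the log2 scale (adjusted p = 0.0460). Neither pair of groups overlapped, but both calls were lost in 5 of the 6 fits without 1 library. Of 28 ribosome biogenesis genes, Nhp2, a protein of snoRNA particles, rose (log2 fold change 0.57, adjusted p = 0.0444), while nucleolin, Ncl, with 1440.1, 1530.1 and 1632 CPM with LPS and melatonin, against 2138, 1985 and 2169.8 CPM with LPS alone, and Heatr1, a factor of ribosomal RNA transcription (log2 fold change -0.93, adjusted p = 0.0315), fell. The log2 fold change of Ncl was -0.45 ± 0.09 (adjusted p = 0.00683), with groups apart. Of 16 alternatives, Ncl passed under 13, Heatr1 under 11 and Nhp2 under 8. No gene passed among 38 cytosolic ribosomal proteins (median 0.08), 29 nuclear-encoded respiratory chain genes (0.03), 24 cholesterol genes (0.05), 20 LXR and fatty acid genes (0.07), 20 antigen presentation genes (0.06), 22 immediate early genes (-0.00) or 19 clock genes (0.06).

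Some of the largest differences in level were of abundant transcripts. Lars2 (chromosome 9, 123366927 to 123462666), annotated as the mitochondrial leucyl-tRNA synthetase, had 2111, 1959.6 and 2573 CPM with LPS and melatonin, against 6298, 5453 and 8259 CPM with LPS alone. The groups were far apart, and Lars2 fell, with a log2 fold change of -1.59 ± 0.31 (adjusted p = 0.00325). Counts in rRNA genes made up a lower share too, 0.410% ± 0.0677 with LPS and melatonin and 0.631% ± 0.0842 with LPS alone (SD, n = 3 each; exact permutation p = 0.1, the smallest that 3 against 3 allows), and the part of that share in the result was not tested. Lars2 levels were lower still in LPS with 1, 10 and 100 µM melatonin, at 782 ± 14.1, 1228 ± 174 and 1352 ± 87.6 CPM. The nuclear long noncoding RNA Malat1, 1 of 12 tested nuclear RNAs, had 1424, 1383 and 1725 CPM with LPS and melatonin, against 2349.6, 2198 and 2686 CPM with LPS alone. It fell, with a log2 fold change of -0.67 ± 0.13 (adjusted p = 0.00254) and no overlap. Of the 12 nuclear RNAs, whose levels can reflect RNA quality, 4 lay lower in every melatonin library and none higher, and their median was -0.27, beside -0.29 for the cytokine list. The part of RNA quality in these results was not tested.

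The remaining genes at the ends of the range were of low level. Among those that rose, Spata1, known from spermatogenesis, had 107 counts over the melatonin libraries and 1 over the LPS libraries, a ratio of 112 with a counting interval of 19.8 to 4484 (95%, exact). Inpp5k, a phosphatase of phosphoinositides, had 10.2, 11.1 and 7.79 CPM with LPS and melatonin, against 0.758, 0.728 and 1.54 CPM with LPS alone, with no overlap and a log2 fold change of 3.24 ± 0.61 (adjusted p = 0.00254). Spata1 was at 2.85 ± 1.42 CPM in solvent and 2.62 ± 2.03, 3.26 ± 1.42 and 1.97 ± 0.934 CPM in LPS with 1, 10 and 100 µM melatonin. Inpp5k was at 12.8 ± 7.76 CPM in solvent and 11.4 ± 6.77, 5.60 ± 3.73 and 7.14 ± 3.30 CPM at these doses (SD, n = 3 each). For both genes LPS alone had the lowest mean of the 12 groups. Ptpro, a receptor-type tyrosine phosphatase, rose by 1.81 ± 0.36 on the log2 scale (adjusted p = 0.00432), Cds1, which makes CDP-diacylglycerol, by 1.62 ± 0.42 (adjusted p = 0.0350), Tsen15, a subunit of the tRNA-splicing endonuclease, by 1.44 ± 0.31 (adjusted p = 0.00913) and Cmtm4, a MARVEL-domain membrane protein, by 1.49 ± 0.36 (adjusted p = 0.0233). The zinc finger gene Zfp958 had a log2 fold change of 2.35 (adjusted p = 0.0251), Accs of 2.12 (adjusted p = 0.0403) and the dehydrogenase Dhrs1 of 1.51 (adjusted p = 0.0444). Each of these lay higher in every melatonin library. Of 16 alternatives, Inpp5k passed under all, Tsen15 under 14 and Spata1, Ptpro and Cmtm4 under 13. Zfp958 passed under 11, Accs under 10, Cds1 under 9 and Dhrs1 under 7.

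Among those that fell, Sgk1, a kinase induced by glucocorticoids and serum, had 4.77, 1.95 and 1.53 CPM with LPS and melatonin, against 12.3, 25.6 and 17.4 CPM with LPS alone. Its groups were apart and its log2 fold change was -2.74 ± 0.72 (adjusted p = 0.0422). Clip2, a microtubule linker, had a log2 fold change of -2.95 ± 0.75 (adjusted p = 0.0334), Cog1, of the Golgi tethering complex, of -1.88 ± 0.45 (adjusted p = 0.0216), and Itpkb, a kinase of inositol trisphosphate, of -1.57 ± 0.33 (adjusted p = 0.00677). Prrc2a, an RNA-binding protein, had 17.0, 27.2 and 16.5 CPM with LPS and melatonin, against 54.3, 52.1 and 44.9 CPM with LPS alone. It fell, with a log2 fold change of -1.32 ± 0.26 (adjusted p = 0.00363), under all 16 alternatives. Glra3, annotated as a glycine receptor subunit, had 13.5, 9.12 and 23.1 CPM with LPS and melatonin, against 65.1, 58.2 and 67.7 CPM with LPS alone, and fell, with a log2 fold change of -2.06 ± 0.41 (adjusted p = 0.00373). All of these lay lower in every melatonin library. Of 16 alternatives, Glra3 and Itpkb passed under 15, Cog1 under 12, Clip2 under 11 and Sgk1 under 10.

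LPS-responsive genes were chosen from libraries that are not in the comparison. They were those at least 2-fold changed between LPS with 1, 10 and 100 µM melatonin and the same doses alone. There 5911 genes passed (34.8%), and 5617 without the pair of libraries that stood apart. The choice was made in cells with melatonin, so genes whose LPS response these doses weaken could drop out. Inpp5k, with a log2 fold change of -3.64 ± 0.62 for LPS over solvent and -0.78 ± 0.30 at these doses, was not chosen. Of 1143 genes that LPS raised by this rule, 10 were higher and 5 lower with 0.1 µM melatonin than with LPS alone (0.875% and 0.437%), with a median log2 fold change of 0.01. Of 1521 genes that LPS lowered, 17 were higher and 28 lower (1.12% and 1.84%), with a median of -0.05. Over all tested genes these shares were 0.653% and 0.706% and the median 0. With a 4-fold limit, 492 raised genes had a median of -0.06 and 630 lowered genes of 0. The LPS-only libraries, which did not choose the genes, showed a median log2 fold change over solvent of 1.51 for the raised and -1.51 for the lowered genes. Without the pair of libraries that stood apart, the medians were 0 for the raised and -0.02 for the lowered genes. The medians given here thus differed from that of all genes by at most 0.06 on the log2 scale. Over all alternatives they ran from -0.06 to 0.02 for the raised and from -0.12 to 0 for the lowered genes. Since the choice could leave out genes that melatonin affects, these medians cannot decide whether the LPS response as a whole was weaker.

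The same dose without LPS was compared with solvent in 6 other libraries that share none with the comparison above. There, 58 genes passed (0.341%), 23 higher and 35 lower. Of these, 16 had also passed under LPS, 8 higher in both and 8 lower in both, and none in opposite directions. They are 6.93% of the 231 genes called under LPS and 27.6% of the 58. Of the 231, 201 (87.0%) had the same sign without LPS, against 56.0% of all tested genes, and their median log2 fold changes without LPS were 0.33 for genes that rose under LPS and -0.36 for those that fell, against -0.00 over all genes. Across all 16988 genes, which are not independent replicates, Pearson's r of the log2 fold changes was 0.026 and Spearman's rho 0.135.

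The shared higher genes were Ftl1-ps1 (log2 fold change 1.03 ± 0.14 without LPS), Ftl2-ps (0.89 ± 0.16), the transcription factor gene Btf3 (1.00 ± 0.22, and 0.94 ± 0.22 under LPS), Selenof, a selenoprotein of the endoplasmic reticulum (0.81 ± 0.16, and 0.63 ± 0.15 under LPS), and the pseudogenes Gm2225, Gm6274, Gm43524 and Gm21399. The shared lower genes included Malat1 (-0.72 ± 0.13 without LPS), Flna (-0.61 ± 0.12), Glra3 (-1.94 ± 0.40) and the zinc finger gene Zfp146 (-0.95 ± 0.21, and -1.05 ± 0.21 under LPS), next to the antisense RNA B930036N10Rik and the pseudogenes Gm12435, Gm12966 and Gm5611. Atp6v0d1 and Ctsd had similar values without LPS, 0.65 ± 0.16 (adjusted p = 0.0579) and 0.54 ± 0.15 (adjusted p = 0.0943), but did not pass there. Trem2 differed by little, with 191, 255 and 236 CPM at 0.1 µM melatonin, against 211, 218 and 222 CPM in solvent, a log2 fold change of 0.07 ± 0.19 (adjusted p = 0.977).

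**Figure D4:**
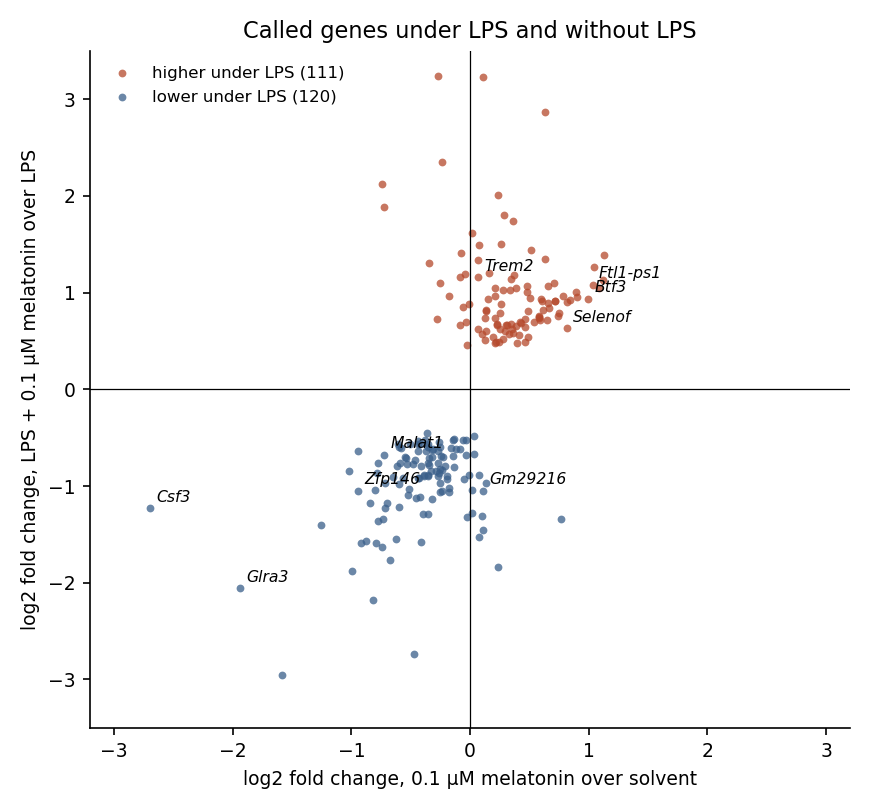
Log2 fold changes of the genes called under LPS, with 0.1 µM melatonin over solvent (no LPS) on the horizontal axis and LPS with 0.1 µM melatonin over LPS on the vertical axis, genes higher under LPS in red and lower in blue. Of the 231 genes 11 lie outside the drawn range. Most red points lie right of 0 and most blue points left of it, 201 of 231 having the same sign in both.

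Whether the change under LPS differed from that without LPS was tested as an interaction. It passed in 2 genes of 16988 (0.0118%), both pseudogenes and both lower, Gm29216 and Gm13502, and 1213 had an unadjusted p under 0.05. The naming rule, which leaves out pseudogenes, named none. DESeq2 called 8 genes and edgeR with only the 12 libraries involved called 28, while protein-coding genes alone gave 0 (803 at an unadjusted p under 0.05). Tnf illustrates the comparison. Without LPS it fell with 0.1 µM melatonin, with 116, 83.0 and 90.7 CPM, against 172, 189 and 159 CPM in solvent (log2 fold change -0.85 ± 0.14, adjusted p = 0.00175), and under LPS it did not pass. The difference of the differences, 0.97 ± 0.20, had an adjusted p of 0.0597, so it was not shown to differ. For Trem2 the interaction was 1.10 ± 0.27 (adjusted p = 0.314) and for Csf3 1.47 ± 1.44 (adjusted p = 0.918). Without LPS, Csf3 had 0, 0 and 0 CPM at 0.1 µM melatonin and 0, 0 and 0.300 CPM in solvent. Its interaction thus cannot show whether the change differed.

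Levels in LPS with higher melatonin doses were set beside those of 0.1 µM, as means ± SD of 3 libraries. Against the same LPS libraries, which all 5 comparisons share, the numbers of genes that passed were 231, 104, 63, 201 and 1282 for the doses 0.1, 1, 10 and 100 µM and 1 mM in that order. Il1b was at 299 ± 29.3 CPM with LPS alone, 92.7 ± 0.114 at 0.1 µM and 140.1 ± 22.3, 89.8 ± 10.1 and 46.5 ± 4.62 CPM at 1, 10 and 100 µM. For Csf3 these levels were 188 ± 17.0, then 80.1 ± 6.15, then 114 ± 17.7, 88.4 ± 10.7 and 48.5 ± 2.81 CPM. Ptgs2 had 836 ± 98.6 CPM with LPS alone, 436 ± 9.88 at 0.1 µM and 426 ± 42.4, 384 ± 6.78 and 246 ± 20.4 CPM at the same 3 doses. For Il1b and Csf3 the mean at 0.1 µM lay between those at 1 and 100 µM, for Ptgs2 it lay just above that at 1 µM, and for all 3 genes it lay below LPS alone. Trem2 had 41.3 ± 15 CPM with LPS alone, 92.4 ± 9.22 at 0.1 µM and 59.3 ± 11.0, 78.9 ± 18 and 98.6 ± 11.6 CPM at the higher doses.

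**Figure D5:**
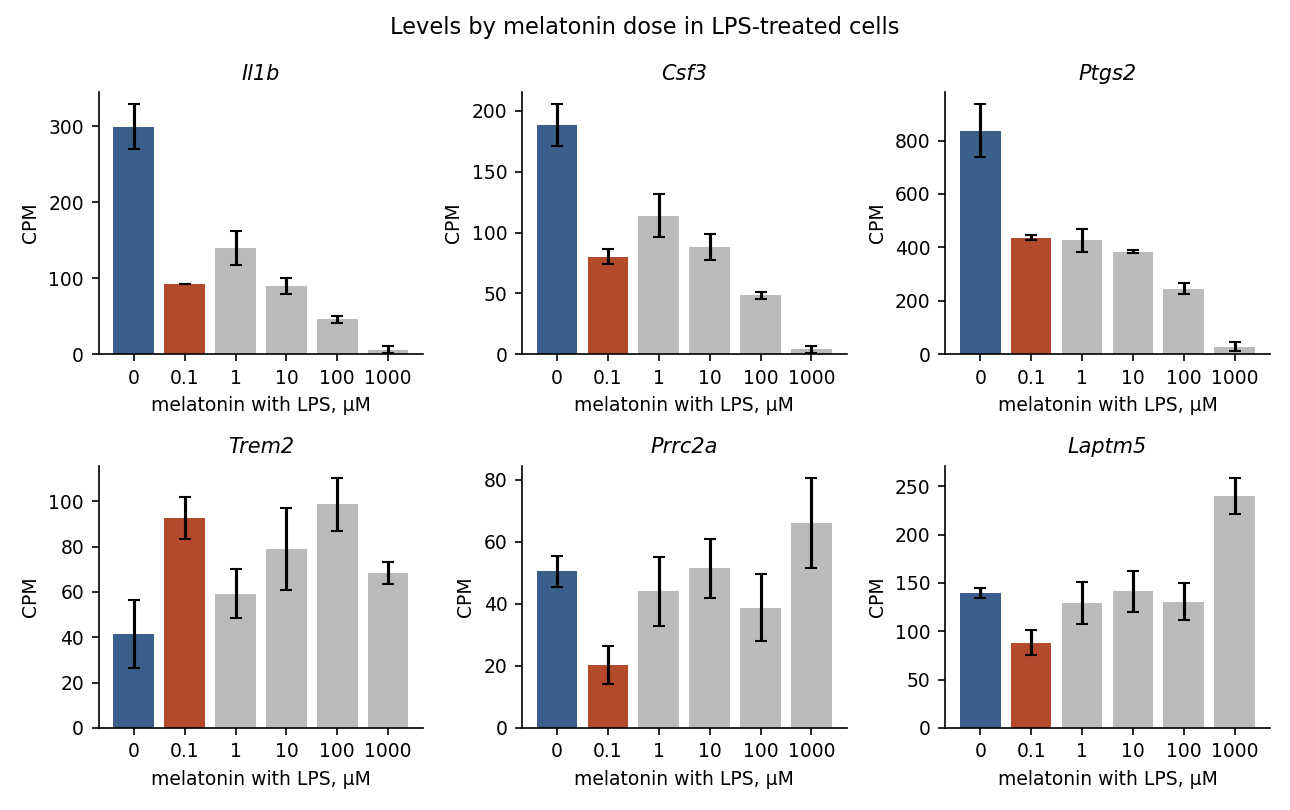
Mean level in CPM (bars) with SD (error bars, n = 3 libraries) of 6 genes in LPS-treated cells at each melatonin dose in µM, with LPS alone (dose 0) in blue, 0.1 µM in red and higher doses in grey, and linear axes that start at 0. Il1b, Csf3 and Ptgs2 are below LPS alone at every dose, while Prrc2a and Laptm5 are lowest at 0.1 µM.

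LPS with 0.1 µM was also tested against the mean of LPS with 1, 10 and 100 µM melatonin, a comparison that needs no LPS-only library. It gave 10 genes (0.0589%), 3 higher (0.0177%) and 7 lower (0.0412%), with 1171 at an unadjusted p under 0.05. The calls were Prrc2a, Laptm5, Racgap1, Zfpm1 and Degs1, the rRNA gene CT010467.1, the antisense RNA Gm15564 and the pseudogenes Gm10222, Gm29216 and Gm6640. Prrc2a had 17.0, 27.2 and 16.5 CPM at 0.1 µM and 44.0 ± 11.1, 51.3 ± 9.51 and 38.6 ± 10.8 CPM at 1, 10 and 100 µM, a difference of -1.13 ± 0.22 (adjusted p = 0.0245). Laptm5 had 98.1, 73.6 and 92.9 CPM at 0.1 µM and 129.5 ± 21.6, 141 ± 21.3 and 131 ± 18.8 CPM at the higher doses, a difference of -0.60 ± 0.12 (adjusted p = 0.0264). Both were thus lower at 0.1 µM than at the doses above it and than with LPS alone. Zfpm1, a cofactor of GATA factors, had 0.159, 0.163 and 0.458 CPM at 0.1 µM and 5.88 ± 0.823, 4.60 ± 3.25 and 4.69 ± 1.41 CPM at the higher doses, and 0, 0.437 and 0.463 CPM with LPS alone. With 5 counts over the 3 libraries at 0.1 µM and 6 with LPS alone, its level was low in both, and the difference from the higher doses was -4.16 ± 0.72 (adjusted p = 0.00434). Racgap1, of the cytokinesis machinery, was lower (log2 fold change -1.01, adjusted p = 0.0307), and Degs1, the desaturase that completes ceramide synthesis, higher (log2 fold change 0.58, adjusted p = 0.0264). Neither passed against LPS alone. Of 22 alternatives of this comparison with the higher doses, Prrc2a and Zfpm1 passed under 20 (adjusted p up to 0.224 and 0.101). Laptm5 passed under 17 (up to 0.522), Racgap1 under 14 (up to 0.531) and Degs1 under 13 (up to 0.439). With the 12 libraries alone in the fit 61 genes passed.

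The called genes differed in length, a property looked at after the results were seen. Protein-coding genes that rose had a median exon length of 3350 bases (n = 78) and those that fell of 7884 bases (n = 57), against 4463 bases over 11761 tested protein-coding genes with a length. Of 1229 genes of 1000 to 2000 bases, 19 rose and 2 fell, with a median log2 fold change of 0.12. The 295 genes under 1000 bases did not share this, since 1 rose and 1 fell, with a median of 0. Of 2135 genes of 8000 bases or more, 7 rose and 28 fell, with a median of -0.09. The median GC content was 50.7% in genes that rose, 49.5% in genes that fell and 49.4% over all. The libraries differed in the same way. Genes with at least 6000 exon bases held 31.5% ± 0.472 of protein-coding counts with LPS and melatonin and 33.8% ± 0.349 with LPS alone, and genes under 2000 bases held 17.2% ± 0.257 and 16.1% ± 0.198 (SD, n = 3 each). Each difference had an exact permutation p of 0.1, the smallest possible, with no overlap of the groups. The share in long genes was 31.9% ± 0.257, 32.5% ± 0.0430 and 32.4% ± 0.282 in LPS with 1, 10 and 100 µM melatonin, and without LPS it was 33.6% ± 0.0879 at 0.1 µM and 34.9% ± 0.661 in solvent. Over the tested protein-coding genes the medians without LPS ran the same way as under LPS, with 0.03 at 1000 to 2000 bases and -0.04 at 8000 bases or more. The few genes called without LPS did not, with a median of 5014.5 bases for the 12 protein-coding genes that rose and 2730 for the 21 that fell. The genes of at least 6000 bases that fell include Dst, Flna, Tln1, Mki67, Cenpf, Piezo1, Prrc2a and Lars2, and the shorter genes that rose include Ctsd and Atp6v0d1. Other genes ran the other way. Csf3 and Il1b, with 1413 and 1907 exon bases, lay lower, and Accs, Ptpro and Cmtm4, with 8364, 6723 and 7734 exon bases, rose. The part of this shift in length in any of these results was not tested.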

How the data were processed

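Total RNA of the cells was extracted with Trizol and sequenced as Illumina TruSeq libraries, per the labels' protocols. The authors deposited a table of read counts per gene beside FPKM values, per the file headers, and the counts were used. The FPKM values deposited by the authors were not used. Cutadapt, featureCounts and the genome build mm10 are named in the submitters' processing notes. Neither their versions nor the aligner, the gene annotation or the handling of strand is given in the sources used here, so overlapping, antisense and near-identical genes are uncertain. Gene names and gene types came from the annotation columns of the authors' FPKM table. Gene positions, exon lengths and GC content came from GENCODE M21, which matched 53360 identifiers (99.8%). An exon length counts the bases covered by the exons of any transcript of a gene, so a single transcript can be shorter.

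All 36 libraries were fitted by the quasi-likelihood method of edgeR 4.0.16 (limma 3.58.1, R 4.3.3), with filterByExpr, TMM scaling, 1 coefficient per group, and the test was checked on simulated data. The common dispersion was 0.266. Adjusted p-values are Benjamini-Hochberg values over 16988 genes for each comparison. Single values were compared by exact two-sided permutation of 20 arrangements. Intervals of count ratios are exact 95% intervals and, like limits from 3 counts, cover counting error only. Mitochondrially encoded genes were not analysed here. Same-numbered libraries were not paired.

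The genes named are, among those past the threshold, the 12 highest and 12 lowest changes with at least 5 CPM and groups that do not overlap, the 6 largest differences in CPM, up to 3 members of each gene list, up to 8 of the interaction and of the comparison with 1, 10 and 100 µM, and 14 genes that were always named. One gene that the rule picked is not reported here. Ctsa, other list members that did not pass, the ferritin copies and the genes shared with melatonin alone were chosen after their values were seen. The comparison and the gene lists were chosen with earlier results of these data known. Alternatives were DESeq2 1.42.0, RLE scaling, other filters, protein-coding genes only, a robust fit, fewer libraries, a replicate block and leaving out each library. The fit without the pair of libraries that stood apart, the lengths and the shares of long and short genes were added after seeing the data.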

Additional observations from a re-analysis of the deposited data

Results flagged for a closer look

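Gm29216, an unprocessed pseudogene on chromosome 1 (24615706 to 24616197, mm10), stood out because its change with 0.1 µM melatonin differed between cells with and without LPS, with a log2 interaction of -1.16 ± 0.20 (edgeR, adjusted p = 0.0100). It had 6407, 6041 and 5783 CPM with LPS and melatonin, against 12957, 12716 and 11990.2 CPM with LPS alone, and 11708, 12464 and 12578 CPM with melatonin, against 11356, 11466 and 11175 CPM in solvent. Gm13502, a processed pseudogene on chromosome 2 (53696121 to 53696804, mm10), stood out because its change with 0.1 µM melatonin differed between cells with and without LPS, with a log2 interaction of -2.11 ± 0.40 (edgeR, adjusted p = 0.0316). It had 11.1, 16.3 and 19.9 CPM with LPS and melatonin, against 33.4, 28.8 and 58.1 CPM with LPS alone, and 41.7, 59.7 and 42.1 CPM with melatonin, against 26.5, 30.6 and 27.4 CPM in solvent. Reads of pseudogenes cannot be told from those of near-identical parent genes, so which genes these counts come from is uncertain for both.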

How the results depend on the processing

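For LPS with 0.1 µM melatonin against LPS, where 231 genes passed, DESeq2 called 420, protein-coding genes alone 115, the fit without both 1 mM groups 458, the fit without the pair of libraries least like their own groups 361, and only the groups compared 508. Leaving out 1 library gave 46 to 221, with 46 and 99 without replicates 2 and 1 of LPS with melatonin and 124, 125 and 94 without replicates 1, 2 and 3 of LPS. For the interaction, where 2 passed, these fits gave 8, 0, 15, 11 and 28, RLE scaling 4, no filter 20, a robust fit 4, and leaving out 1 library 1 to 4. Against the mean of 1, 10 and 100 µM, where 10 passed, they gave 32, 5, 33, 29 and 61, no filter 26, and leaving out 1 library 3 to 13. For 0.1 µM melatonin alone against solvent, where 58 passed, they gave 202, 33, 215, 155 and 338, no filter 137, and leaving out 1 library 11 to 33. The causes were not tested, except that fewer genes or libraries enter some fits by construction. With a replicate block, 199, 2, 11 and 53 genes passed. Same-numbered libraries of LPS with melatonin and of LPS had deviations correlated at -0.022, -0.027 and 0.042. Differently numbered libraries were at -0.023 to 0.045. These values gave no sign that the numbers pair the libraries, but with 3 libraries per group they cannot settle it. Zfpm1, with few counts and a log2 fold change of -0.18 against LPS, was at 0.17, 0.22, 0.05 and 0.04 without replicate 2 or 3 of LPS or replicate 1 or 2 of LPS with melatonin, and ranged from -0.84 to 0.22 when 1 library was left out. The difference of TMM factors, -0.00114, was 0.00678 and 0.00844 without replicate 2 of LPS or of LPS with melatonin, and ranged from -0.00918 to 0.00844 when 1 library was left out. Of 46 named genes that passed, 35 lost the call under some alternative and 0 changed sign. Of 513 medians of gene lists under alternatives, 61 moved by more than the spread between libraries. The share of called genes with the same sign without LPS ranged from 81.7% to 88.3%. Leaving out single libraries of 1, 10 and 100 µM melatonin alone was not run. At this depth 3 counts equal 0.437 to 0.488 CPM, under which a level cannot be told from 0.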
